A study of Mus musculus with 5 samples.

Results

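The neutrophil secondary granule protein genes examined here were Ltf, Camp, Ngp, Lcn2, Cd177, Chil3, Fcnb, Orm1 and Hp. They were taken by name, without using their values, as 9 of the 21995 genes in the deposited table of unique molecular identifier (UMI) counts. The study profiled neutrophils by single-cell RNA sequencing on BD Rhapsody, a microwell system that captures messenger RNA of each cell on a barcoded bead. All mice were C57BL/6, kept under specific pathogen-free steady state conditions with no treatment, and were young (10 weeks in the sample labels, 8 weeks in the series design) or old (20 months). Cells came from lung, liver, spleen, intestine, blood and bone marrow, and were sorted as DAPI negative, CD11b+ and Ly6G+. The experiment was run 2 times, and cells of both ages and all tissues were loaded together, giving the pools YO1 and YO2, each from 1 cartridge and 1 library. A cell's barcode names its pool but not its tissue or age in the files used here, so every level below is an average over tissues and ages.

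Neutrophils fill their granules while they mature in the bone marrow, and each kind of granule holds the proteins made at the time it forms. Azurophil granules form first in progenitors, secondary (specific) granules follow around the last divisions and just after them, and tertiary (gelatinase) granules form later. Most secondary granule genes are transcribed in a limited window of maturation and are silent in the mature cell, which keeps the stored proteins, and the transcription factor C/EBP epsilon is required for them.

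After removal of barcodes with under 200 UMIs, under 100 genes or 20% or more mitochondrial UMIs, 19505 of 20352 barcodes remained in YO1 and 17215 of 17720 in YO2. The median depth was 1231 UMIs per cell in YO1 and 1454 in YO2, and 406 barcode numbers occurred in both pools. Each cell was placed in the first class whose rule it met. Progenitors had 10 or more UMIs of the azurophil protease genes Elane, Mpo and Prtn3, and all 142 of them were in YO1. Cycling cells had 2 or more UMIs of the proliferation genes Mki67 and Top2a (707 in YO1, 182 in YO2). Mmp8-high cells had 5 or more UMIs of the neutrophil collagenase gene Mmp8 (3561 and 1651). Calprotectin-rich Mmp8-negative cells, the class meant to hold mature neutrophils, had at least 2% of their UMIs from S100a8 and S100a9 and no Mmp8 UMI (5015 and 4166). Macrophages had 2 or more UMIs of the complement gene C1qa (216 and 433).

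The classes were checked against markers before any comparison. All 6 progenitor markers were each detected in at least 20% of progenitors, all 6 cycling markers in cycling cells and all 8 macrophage markers in macrophages. The cycling classes of the pools were unlike each other. In YO1 84.4% of cycling cells had calprotectin at 2% or more, against 41.8% in YO2. Plasma cell markers summed to 6031 UMIs per 1000000 UMIs of all genes (CPM) in YO2 cycling cells and to 514 CPM in YO1, and Jchain, the immunoglobulin joining chain gene, was seen in 29.1% of the YO2 cells and in 2.83% of the YO1 cells. All 6 cycling markers also reached 20% of progenitors, summing to 2374 CPM against 3720 CPM in YO1 and 3106 CPM in YO2 cycling cells. Of 8 neutrophil markers, 7 reached 20% of macrophages in each pool. They summed to 14707 CPM in YO1 and 9165 CPM in YO2, against 89740 and 66371 CPM in calprotectin-rich Mmp8-negative cells. In progenitors, eosinophil markers summed to 4846 CPM. What part these other cells had in the cycling and progenitor levels was not tested. Member values for calprotectin-rich cycling cells alone are given beside the comparison with Mmp8-high cells.

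In GENCODE M21 on GRCm38, Camp (chr9:109847379-109849617, minus strand), Ngp (chr9:110419747-110423012, plus) and Ltf (chr9:111019271-111042767, plus) lie on chromosome 9. Fcnb (chr2:28076378-28084885, minus) and Lcn2 (chr2:32384633-32388252, minus) are on chromosome 2. Chil3 (chr3:106147554-106167564, minus), Orm1 (chr4:63344560-63348163, plus), Cd177 (chr7:24743983-24760311, minus) and Hp (chr8:109575128-109579172, minus) are on chromosomes of their own. All 9 are protein-coding.

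RefSeq promoter windows (GRCm38.p6) were matched for 7 of the 9 genes, and not for Orm1 and Hp. The 250 bases before each start site were searched on both strands for TTGCNNAA, the core of the C/EBP family motif, which reads TTNNGCAA on the other strand. It was present in 4 of the 7 windows (Ltf, Ngp, Lcn2 and Fcnb) and in 9.56% of all 32851 promoter windows of that length. The Lcn2 window, chr2:32387740-32387989, lies inside the gene as GENCODE places it, so its match is not before the GENCODE start. Of the Camp window, 89 of the 250 bases lie before the GENCODE start. The sequence TATAAA was present in 1 of the 7 (Cd177) and in 12.4% of all windows. A match describes the letters only, and its absence from a window says nothing of the factor. The 3 stretches below are shown because Fcnb was called lower in Mmp8-high than in cycling cells while Ltf and Ngp did not pass the test there, and each reads 5′ to 3′ on the gene's strand, ends at the base before the GENCODE start of the gene, and has the matches in capitals. Ltf is chr9:111019042-111019270 on the plus strand, with its match 75 bases before the RefSeq start. Ngp is chr9:110419558-110419746 on the plus strand, with the printed match 138 bases before the RefSeq start, and a second match 11 bases before that start, beyond the printed part. Fcnb is chr2:28084886-28085128 on the minus strand, with matches 235 and 123 bases before the RefSeq start.
Ltf promoter: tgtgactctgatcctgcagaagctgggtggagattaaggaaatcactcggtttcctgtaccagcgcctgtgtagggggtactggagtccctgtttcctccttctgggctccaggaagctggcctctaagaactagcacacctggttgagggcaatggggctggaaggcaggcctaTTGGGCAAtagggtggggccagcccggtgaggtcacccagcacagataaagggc
Ngp promoter: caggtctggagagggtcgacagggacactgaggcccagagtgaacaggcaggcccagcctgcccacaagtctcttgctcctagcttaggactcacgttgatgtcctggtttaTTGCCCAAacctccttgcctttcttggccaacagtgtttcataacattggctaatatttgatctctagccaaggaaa
Fcnb promoter: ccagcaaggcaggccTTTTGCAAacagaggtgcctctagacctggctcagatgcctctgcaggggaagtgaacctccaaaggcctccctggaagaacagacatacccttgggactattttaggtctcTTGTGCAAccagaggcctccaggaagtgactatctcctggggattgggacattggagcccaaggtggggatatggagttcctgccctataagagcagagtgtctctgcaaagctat

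Levels are given as CPM, from the UMIs of a gene and of all genes summed over the cells of a class and pool. Ltf encodes lactoferrin, an iron-binding protein that withholds iron from bacteria. Its level was 1412 CPM in YO1 progenitors, 8277 in cycling cells of YO1 and 2840 in those of YO2. In Mmp8-high cells it was 8249 CPM in YO1 and 3596 in YO2. It was 3445 and 821 CPM in calprotectin-rich Mmp8-negative cells, and 163 and 4.08 CPM in macrophages. Within each pool Ltf was thus at its highest in cycling and Mmp8-high cells. Lcn2 encodes lipocalin 2, which binds bacterial siderophores. Its level was 3050 CPM in progenitors, 12599 and 4743 in cycling cells of YO1 and YO2, and 13653 and 6339 in Mmp8-high cells. In calprotectin-rich Mmp8-negative cells it was 6210 and 2253 CPM and in macrophages 587 and 151 CPM. Lcn2 was the more widely detected of this iron-related pair, with UMIs in 54.1% of the calprotectin-rich Mmp8-negative cells of YO1 and 48.9% of those of YO2, against 13.7% and 3.98% for Ltf.

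Camp encodes the precursor of the antimicrobial peptide cathelicidin. It was at 8935 CPM in progenitors, 16692 and 6286 CPM in cycling cells of YO1 and YO2, and 6666 and 3022 CPM in Mmp8-high cells. Its level in calprotectin-rich Mmp8-negative cells was 4616 CPM in YO1 and 1138 CPM in YO2, and in macrophages 407 and 2.72 CPM. Camp therefore peaked in the cycling class of both pools. Ngp encodes neutrophilic granule protein, a relative of the cathelicidin precursors. It was at 14291 CPM in progenitors, 42750 and 17447 CPM in cycling cells, and 26640 and 14315 CPM in Mmp8-high cells. Its level was 14269 CPM in YO1 and 4126 CPM in YO2 calprotectin-rich Mmp8-negative cells, and 1045 and 19.1 CPM in macrophages. Like Camp, Ngp was highest in cycling cells, and 82.3% of the Mmp8-high cells of YO1 but 30.7% of those of YO2 had an Ngp UMI.

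Chil3 encodes Ym1, a chitinase-like lectin. It was at 3395 CPM in progenitors, 10799 and 6680 CPM in cycling cells of YO1 and YO2, and 2723 and 1479 CPM in Mmp8-high cells. In calprotectin-rich Mmp8-negative cells it was at 2407 and 608 CPM and in macrophages at 412 and 431 CPM. In YO2 the macrophage level of Chil3 was 0.709 times that of the calprotectin-rich Mmp8-negative cells, and in YO1 0.171 times. Fcnb encodes ficolin B, a pattern-recognition lectin that starts the lectin pathway of complement. Its level was 2747 CPM in progenitors, 1394 and 241 CPM in cycling cells, and 46.8 and 26.6 CPM in Mmp8-high cells. In calprotectin-rich Mmp8-negative cells it was 209 and 40.7 CPM. In macrophages it was 12.1 CPM in YO1, and no UMI was found in 433 cells of YO2, where 3 counts would be 1.36 CPM and the exact 95% Poisson interval ends at 1.67 CPM. Fcnb was the 1 member with its highest level in progenitors.

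Cd177 encodes a glycosylphosphatidylinositol-anchored protein of neutrophil granules and surface. It was at 81.1 CPM in progenitors, 315 and 169 CPM in cycling cells of YO1 and YO2, and 360 and 191 CPM in Mmp8-high cells. In calprotectin-rich Mmp8-negative cells it was at 121 and 50.3 CPM and in macrophages at 14.8 and 2.72 CPM. Its class pattern followed that of Lcn2, with a correlation of 0.994 over the 9 class sums of log2(CPM + 1), the highest of any pair of members. Orm1 (orosomucoid 1) and Hp (haptoglobin, which binds free haemoglobin) encode acute-phase plasma proteins made mainly by the liver and also by maturing neutrophils. Orm1 was at 61.6 CPM in progenitors, 210 and 104 CPM in cycling cells, and 36.1 and 27.0 CPM in Mmp8-high cells. It was at 83.4 and 26.9 CPM in calprotectin-rich Mmp8-negative cells, at 5.38 CPM in YO1 macrophages, and without a UMI in YO2 macrophages. Hp was at 899 CPM in progenitors, 1169 and 597 CPM in cycling cells, 1760 and 1599 CPM in Mmp8-high cells, 1724 and 1554 CPM in calprotectin-rich Mmp8-negative cells, and 326 and 285 CPM in macrophages. Hp was the 1 member for which both Mmp8 classes stood above the cycling cells in both pools, and the lowest correlation of any pair of members was 0.421, between Chil3 and Hp.

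**Figure D1:**
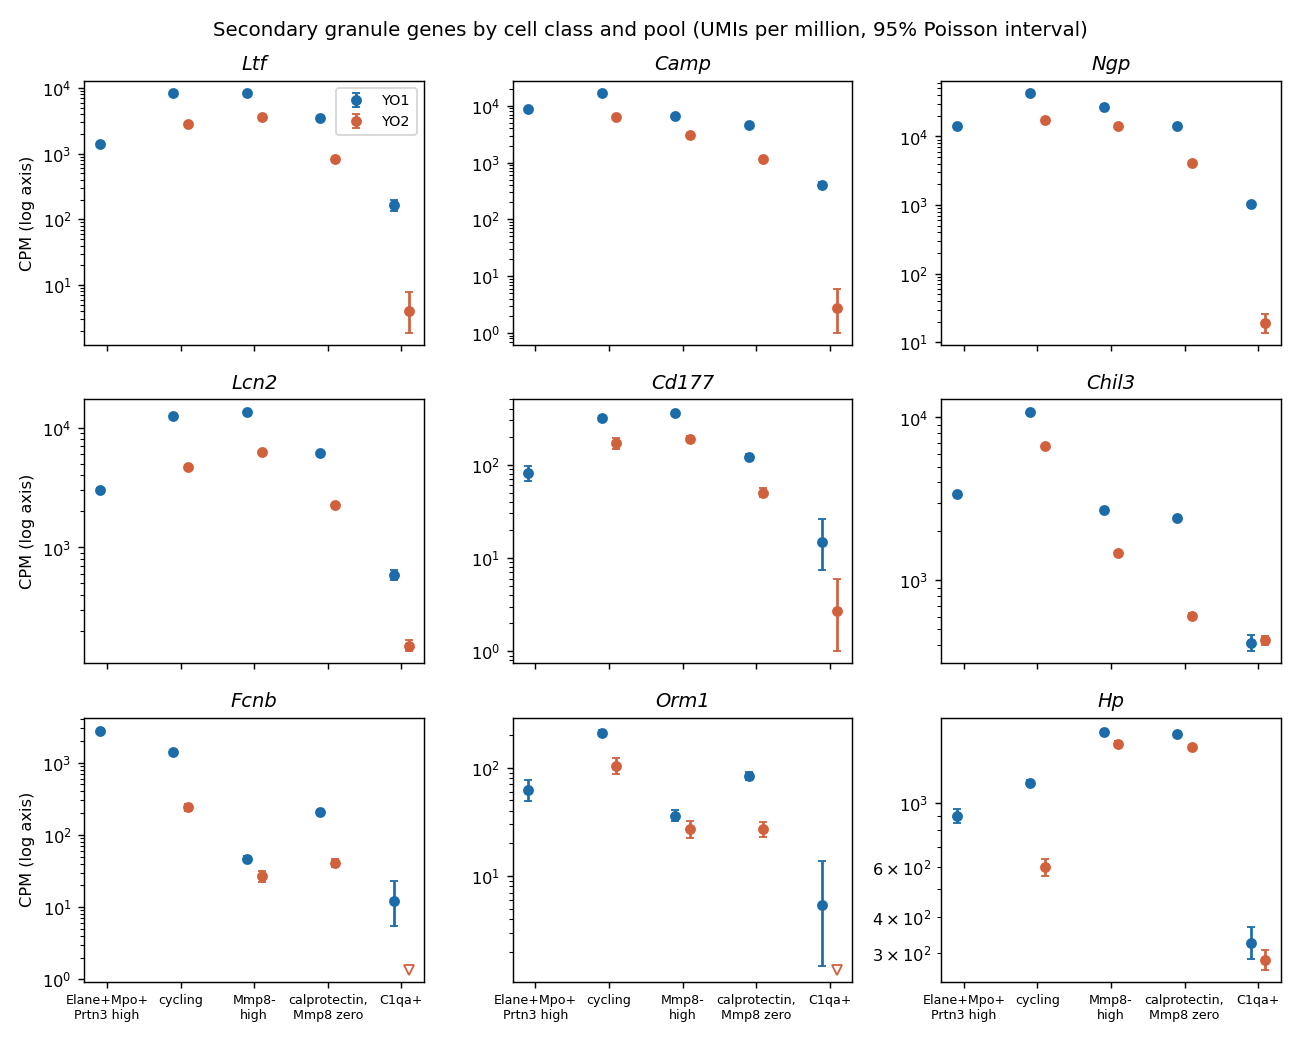
Level of each member (CPM, log axis) in the 5 cell classes, with YO1 in blue, YO2 in orange and exact 95% Poisson intervals; open triangles mark the level that 3 counts would give where no UMI was found. Cycling cells are high for 8 members, Hp is high in both Mmp8 classes instead, and where a class held both pools, YO1 points lie above YO2 points for all but Chil3 in macrophages.

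YO1 levels stood above YO2 levels for every member in the neutrophil classes. YO1 was 1.62 (Chil3) to 5.79 (Fcnb) times as high as YO2 in cycling cells, 1.10 (Hp) to 2.29 (Ltf) times in Mmp8-high cells and 1.11 (Hp) to 5.14 (Fcnb) times in calprotectin-rich Mmp8-negative cells. Both pools held both ages by their labels, but the share of each age and tissue in a pool is not known here, so pool, age and tissue cannot be told apart. All 9 genes together made up 9.42% of the UMIs of cycling cells in YO1 and 3.91% in YO2, against 0.297% and 0.0895% in macrophages.

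Cycling cells were compared with progenitors, which also carried cycling markers, to see which members were higher past the azurophil stage. Within YO1, 8 of the 9 members were higher in cycling cells, from 1.30 times for Hp and 1.87 times for Camp to 5.86 times for Ltf (95% counting interval 5.60 to 6.14). Fcnb was lower, at 0.508 times (0.487 to 0.529). Across the classes edgeR's quasi-likelihood test called Lcn2 (log2 change 2.20 ± 0.41 SE, adjusted p = 0.0286) and Cd177 (2.19 ± 0.35, adjusted p = 0.0126) higher, and none of the 9 lower (none at an unadjusted p under 0.05 either, and none by DESeq2), where 0.701% of the 12127 genes tested were called higher and 0.643% lower. All 9 members passed the filter on low counts. Ltf had the largest estimate, 2.99 ± 0.82, and did not pass (edgeR adjusted p = 0.0901), nor did Orm1 (1.94 ± 0.45, adjusted p = 0.0575), Chil3 (1.89 ± 0.51, adjusted p = 0.0879) or Fcnb (-1.05 ± 0.50, adjusted p = 0.305). The median change of the members was 1.94 and that of all genes 0.05. The progenitor class is 1 sum from 1 pool, so its own spread is unknown and is taken from the other classes. The p-values here measure the spread between 2 pools, each a mixture of mice, and not between animals. Both calls were lost with library sizes set to total UMIs in place of TMM scaling (edgeR adjusted p = 0.0664 for Lcn2 and 0.0517 for Cd177).

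Mmp8-high cells were compared with cycling cells to see which members outlast division. Against the whole cycling class, the members ranged from far below their cycling level to above it. Against calprotectin-rich cycling cells alone, given further below, Ltf, Lcn2 and Cd177 were at 41.0% to 48.5% in YO2. Fcnb fell to 3.35% of its cycling level in YO1 and 11% in YO2, Orm1 to 17.2% and 26.0%, and Chil3 to 25.2% and 22.1%. Camp stood at 39.9% and 48.1% and Ngp at 62.3% and 82.0%. Ltf, Lcn2 and Cd177 were at 99.7% to 134%, and Hp was at 151% in YO1 and 268% in YO2. edgeR called 3 members lower, against 20.8% of all genes: Fcnb (log2 change -3.46 ± 0.46 SE, adjusted p = 0.000119), Orm1 (-1.66 ± 0.33, adjusted p = 0.00176) and Chil3 (-1.51 ± 0.38, adjusted p = 0.00739). It called 3 higher, against 21.2% of all genes: Hp (1.53 ± 0.30, adjusted p = 0.00160), Lcn2 (0.85 ± 0.30, adjusted p = 0.0370) and Cd177 (0.76 ± 0.24, adjusted p = 0.0245). Ltf (0.78 ± 0.56), Ngp (0.15 ± 0.75) and Camp (-0.58 ± 0.77) did not pass, with edgeR adjusted p-values of 0.277 to 0.890. Of the members called, only Fcnb kept its call under each of the 20 alternatives run.

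The 3 higher calls were not kept when only calprotectin-rich cells were counted as cycling, and those of Lcn2 and Cd177 were lost under other alternatives too. Among cycling cells with calprotectin at 2% or more, 597 in YO1 and 76 in YO2, the pools were closer for every member than in the whole cycling class. Ngp was at 51638 CPM in YO1 and 48423 CPM in YO2 in these cells, against 172 and 16.7 CPM in the 110 and 106 cycling cells below that level. Ltf was at 9994 and 7882 CPM, against 54.4 and 2.22 CPM. Orm1 was at 253 and 289 CPM, and no Orm1 UMI was found in the cycling cells below 2%. Chil3 was the member that these other cycling cells also held, at 5074 and 4580 CPM against 11994 and 10411 CPM in the calprotectin-rich ones, and the macrophage gene Cd68 was at 727 and 593 CPM in them. Set against the calprotectin-rich cycling cells, the Mmp8-high level was 2.79% in YO1 and 3.98% in YO2 for Fcnb, 14.3% and 9.36% for Orm1, 22.7% and 14.2% for Chil3 and 33.1% and 17.3% for Camp. It was 51.6% and 29.6% for Ngp, 82.5% and 45.6% for Ltf, 89.8% and 48.5% for Lcn2, 94.8% and 41.0% for Cd177, and 129% and 110% for Hp. With that setting Lcn2 and Cd177 turned to -0.39 and -0.43 on the log2 scale (edgeR adjusted p = 0.414 and 0.321), and Hp no longer passed (0.54, adjusted p = 0.0745). Leaving out either pool's Mmp8-high sum ended the calls of Lcn2, Cd177 and Chil3, leaving out the YO1 Mmp8-high sum ended that of Orm1, leaving out the YO1 cycling sum ended Lcn2 and Cd177, and leaving out the YO2 cycling sum ended Lcn2. With library sizes set to total UMIs, the all-gene median went from -0.11 to -0.68 and the calls over all genes from 2566 higher and 2528 lower to 1292 and 4285, with Lcn2 at 0.28 and Cd177 at 0.19, neither passing.

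The calprotectin-rich Mmp8-negative cells were compared with the Mmp8-high cells to follow the members into maturity. Cd177 stood at 33.5% of its Mmp8-high level in YO1 and 26.4% in YO2, Ltf at 41.8% and 22.8%, Lcn2 at 45.5% and 35.5% and Ngp at 53.6% and 28.8%. Camp was at 69.2% and 37.7% and Chil3 at 88.4% and 41.1%. Hp differed little, at 98.0% and 97.2%. Fcnb went the other way, at 4.47 times (95% counting interval 4.0 to 5.01) in YO1 and 1.53 times (1.23 to 1.91) in YO2, and Orm1 was at 2.31 times in YO1 and 0.997 times in YO2. edgeR called 1 member lower, Cd177 (log2 change -1.71 ± 0.25 SE, adjusted p = 0.0197), against 0.693% of all genes. It called none higher, against 0.478% of all genes. At an unadjusted p under 0.05 edgeR had 1 member higher, Fcnb (1.39 ± 0.43, unadjusted p = 0.00762, adjusted p = 0.135). DESeq2 called no member higher either, and 2 lower. Lcn2 (-1.28 ± 0.30, edgeR adjusted p = 0.0582), Ltf (-1.71 ± 0.57, adjusted p = 0.158) and Ngp (-1.39 ± 0.76, adjusted p = 0.418) did not pass. The Cd177 call was lost when any of the 4 sums, either pool of either class, was left out (edgeR adjusted p = 0.0576 to 0.308).

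The class of calprotectin-rich Mmp8-negative cells was a mixture, and the members showed it cell by cell. In YO1, 3676 of its 5015 cells had no Ngp UMI, 925 had 1 to 9, 53 had 10 to 99 and 361 had 100 or more, up to 559. In YO2 the same counts were 3852, 228, 5 and 81, up to 1031. Most cells thus had few or no Ngp UMIs, a smaller group had 100 or more, and the range from 10 to 99 was sparse. The tenth of cells with the most UMIs of a gene held 99% of the Ngp UMIs in YO1 and 100% in YO2, and 99.1% and 100% of the Ltf UMIs. It held 85.9% and 77.5% of the Lcn2 UMIs, and only 32.4% and 30.7% of the Hp UMIs. In Mmp8-high cells the spread was wider, with Ngp at 100 or more UMIs in 984 cells of YO1 and 263 of YO2 and at 0 in 631 and 1144.

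**Figure D2:**
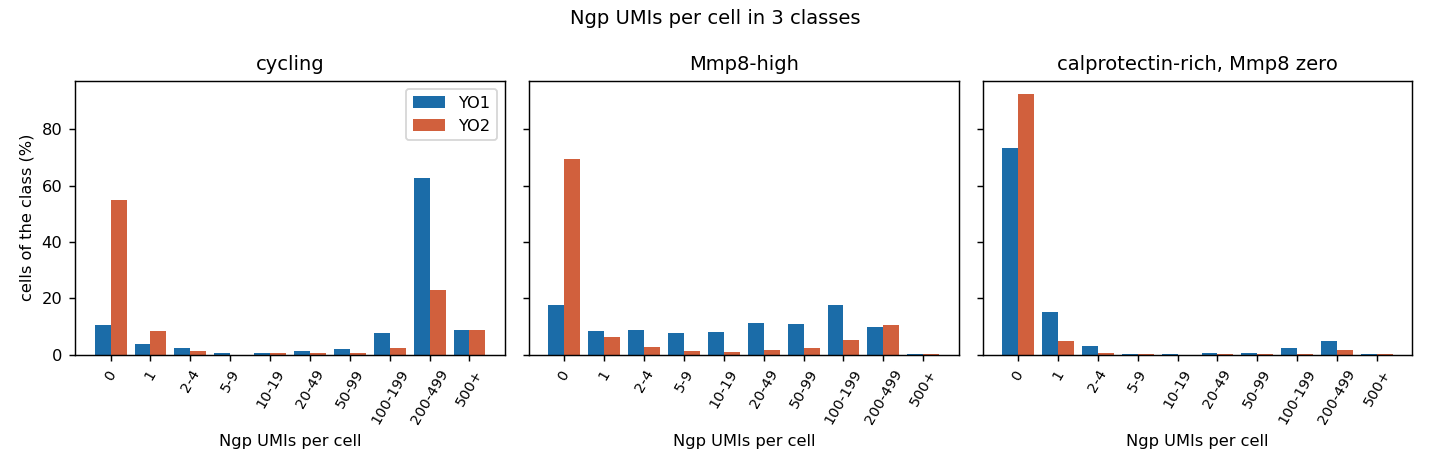
Share of cells (percent of the class, bars from 0) by number of Ngp UMIs per cell in cycling, Mmp8-high and calprotectin-rich Mmp8-negative cells, with YO1 in blue and YO2 in orange. The last class has a tall bar at 0 and a small separate group at 100 or more UMIs, made of 361 cells in YO1 and 81 in YO2.

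Cells of that class with 20 or more Ngp UMIs, a boundary set after the values were seen and used without a test, numbered 406 in YO1 (8.10%) and 86 in YO2 (2.06%). Their median depth was 3344.5 and 4303 UMIs, against 943 and 1258 in the other cells. They carried the rest of the members at levels that were closer between the pools than in the whole class. Ltf was at 15244 and 12679 CPM in them, against 88.3 and 14.8 CPM in the cells with fewer Ngp UMIs. Camp was at 20470 and 17700 CPM against 105 and 11.5 CPM. Chil3 was at 10580 and 8990 CPM against 81.1 and 37.8 CPM. The low-abundance members followed the same split: Fcnb was at 926 and 628 CPM against 5.16 and 0.71 CPM. Orm1 was at 369 and 423 CPM against 2.06 CPM in YO1 and no UMI in YO2. Cd177 was at 484 and 600 CPM against 17.3 and 12.9 CPM. Lcn2 and Hp were the members kept outside the Ngp-rich cells. Lcn2 was at 23213 and 20856 CPM in Ngp-rich cells and still at 1373 and 988 CPM in the others, with a UMI in 50.1% and 47.8% of them. Hp was at 1602 and 1472 CPM in Ngp-rich cells and at 1759 and 1560 CPM in the others, with a UMI in 75.1% and 79.1%.

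**Figure D3:**
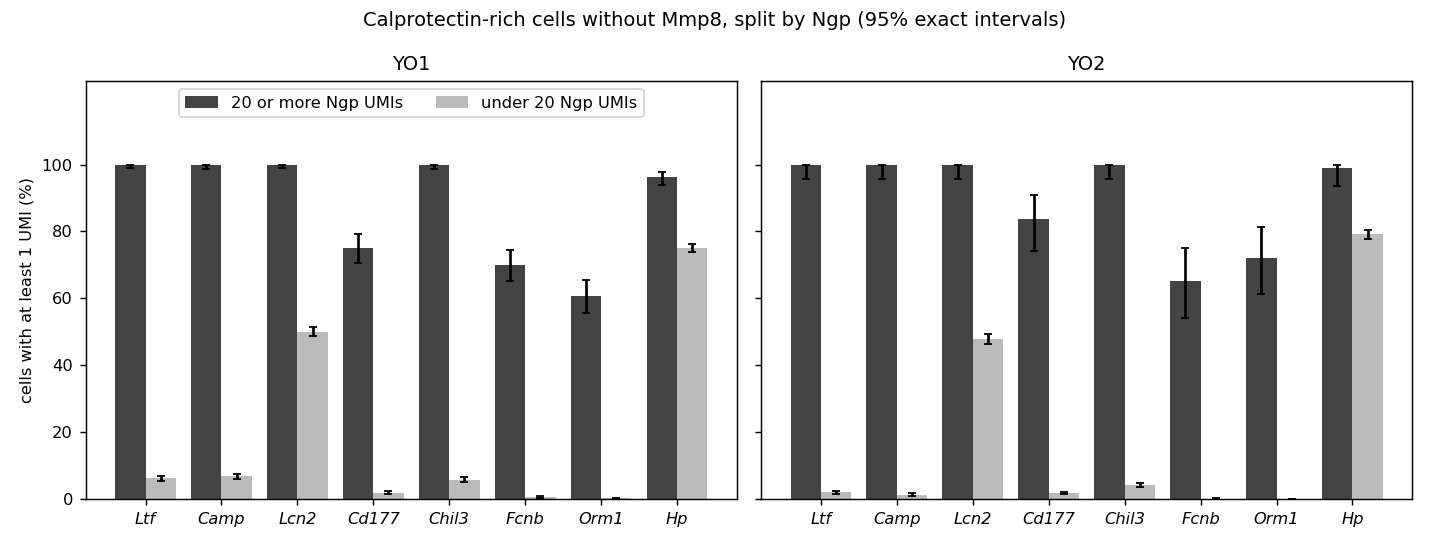
Percent of calprotectin-rich Mmp8-negative cells with at least 1 UMI of each of the other 8 members, in cells with 20 or more Ngp UMIs (dark bars) and fewer (light bars), with exact 95% Clopper-Pearson intervals, 1 panel per pool. Light bars are below 10% for 6 members, at 50.1% and 47.8% for Lcn2 and at 75.1% and 79.1% for Hp.

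Other genes told these cells apart as well. Cxcr2, the chemokine receptor of mature neutrophils, was at 232 CPM in the Ngp-rich cells of YO1 and 483 CPM in those of YO2, against 2881 and 3774 CPM in the other cells. Csf3r, the receptor of granulocyte colony-stimulating factor, was at 159 and 239 CPM against 2484 and 2539 CPM. Il1b was at 266 and 470 CPM against 11234 and 11604 CPM. Cebpe, the gene of C/EBP epsilon, was at 322 and 317 CPM in Ngp-rich cells against 12.6 and 9.36 CPM. Ly6g, the gene of the sort marker, was at 1381 and 2079 CPM against 70.6 and 61.3 CPM. Mki67 was at 21.8 and 10.4 CPM against 2.06 and 1.06 CPM. By these genes the Ngp-rich cells did not match a mature neutrophil, and the class is therefore called here by its rule. The same boundary in Mmp8-high cells gave 1772 Ngp-rich cells (49.8%) in YO1 and 324 (19.6%) in YO2, with Ltf at 12925 and 11886 CPM in them and at 390 and 42.9 CPM in the rest. In both classes the pools were close in Ngp-rich cells and differed in the share of such cells.

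The members were then followed along the summed UMIs of Cxcr2 and Csf3r per 10000 UMIs of a cell, an axis chosen after the data were seen and described without a test. It covered all calprotectin-rich cells outside the progenitor and cycling classes, 13563 in YO1 and 10588 in YO2, in 5 bins with upper edges at 5, 15, 30 and 50 per 10000. From the lowest bin (967 and 136 cells) to the highest (5556 and 6793 cells), Ltf went from 14783 to 126 CPM in YO1 and from 13337 to 28.2 CPM in YO2. Ngp went from 53653 to 569 CPM and from 60601 to 105 CPM. Fcnb went from 468 to 5.31 CPM and from 299 to 0.386 CPM. All but Hp were lower in the highest bin than in the lowest in both pools, and what was left fell into 3 groups. Ltf, Camp, Ngp, Chil3, Fcnb and Orm1 kept 0.786% (Orm1) to 1.13% (Fcnb) of the lowest bin in YO1 and 0.112% (Camp) to 0.438% (Chil3) in YO2. Cd177 kept 7.79% and 3.19%, and Lcn2 10.8% and 6.77%. Hp stood at 129% and 119%.

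The members also differed in how early they declined. In the second bin, 5 to 15 per 10000, Orm1 was at 32.4% of its first-bin level in YO1 and 40.7% in YO2. Fcnb was at 34.8% and 70.3%, and Chil3 at 53.7% and 57.2%. Camp was at 60.0% and 55.9% and Ngp at 67.1% and 59.7%. Ltf (73.0% and 64.6%), Lcn2 (75.6% and 66.4%) and Cd177 (78.6% and 58.3%) came last in YO1, while in YO2 Cd177 stood below Ngp. Hp was at 101% and 83.2%. In YO1 the first 3 to decline, Orm1, Fcnb and Chil3, were the 3 with the lowest Mmp8-high to cycling ratios, and Camp and Ngp came next by both measures. In YO2, where the lowest bin held 136 cells, Orm1 was again first but Fcnb was last of the 8 that declined. By the third bin, 15 to 30 per 10000, Fcnb (29.6 and 29.8 CPM) and Orm1 (19.9 and 26.2 CPM) had the lowest percentages left in both pools. The bins share cells with the Mmp8 classes, so the orders are not independent of each other.

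**Figure D4:**
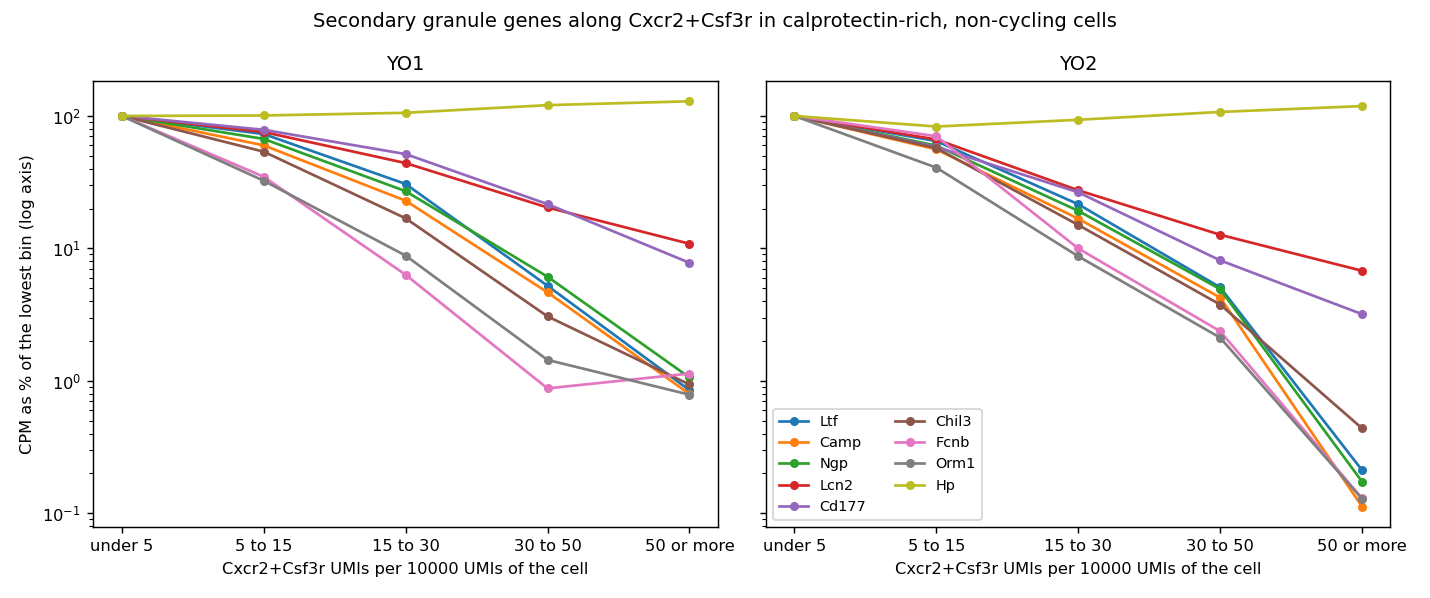
Level of each member as a percentage of its level in the lowest bin (log axis) against Cxcr2 plus Csf3r UMIs per 10000 UMIs of the cell, 1 panel per pool and 1 line per gene. The lines of 6 genes end near or under 1%, Cd177 and Lcn2 end between 3.19% and 10.8%, and Hp stays near 100%.

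Within the lowest bin, cells with and without Mmp8 differed in the members lost first. Fcnb was at 884 CPM in the 381 Mmp8-negative cells of YO1 and 452 CPM in the 61 of YO2, against 114 CPM in 401 and 182 CPM in 51 Mmp8-high cells. Orm1 was at 361 and 442 CPM against 106 and 177 CPM. Chil3 was at 10346 and 9093 CPM against 5696 and 5316 CPM. Ltf had the opposite order, at 14532 and 11797 CPM without Mmp8 and 15801 and 16237 CPM with it. Cd177 was about equal, at 482 and 661 CPM against 477 and 660 CPM. Along the Mmp8 count alone the course was not monotonic: over 0, 1, 2 to 4, 5 to 9 and 10 or more Mmp8 UMIs, Ltf was at 3445, 1490, 1161, 3115 and 9645 CPM in YO1 and at 821, 468, 367, 964 and 7655 CPM in YO2. In each pool 8 of the 9 members, all but Hp, were higher at 0 Mmp8 UMIs than at 1 or at 2 to 4. When the Mmp8-negative class was limited to cells with Cxcr2 plus Csf3r at 30 per 10000 or more, Fcnb was at 14.2% of its Mmp8-high level in YO1 and 4.53% in YO2. Orm1 was then at 7.33% and 5.95%, Ltf at 1.05% and 0.911%, Lcn2 at 10.5% and 16.5%, and Hp at 106% and 101%. The limit takes out cells low in Cxcr2 and Csf3r, as the Ngp-rich cells were, so it favours these lower levels. The edgeR calls made with this limit are given with the alternatives below, and nothing further is read from them.

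Detection per cell was compared after each cell was thinned to 500 UMIs, since depth differed between the classes from a median of 968 to 9375 UMIs. Ngp was detected in 84.5% of YO1 and 35.9% of YO2 cycling cells, 71.9% and 23.6% of Mmp8-high cells and 18.3% and 4.18% of calprotectin-rich Mmp8-negative cells. Unthinned, the last share was 26.7% in YO1 and 7.54% in YO2. Hp was detected in 44.0% and 29.8% of thinned cycling cells, 60.8% and 55.9% of Mmp8-high cells and 55.2% and 50.8% of calprotectin-rich Mmp8-negative cells. Thinning left the calprotectin-rich Mmp8-negative cells below the Mmp8-high cells for Ngp in both pools, with Hp lowest in cycling cells. Fcnb was detected in 57.2% of progenitors, in 39.6% and 7.73% of cycling cells and in 1.15% and 0.848% of Mmp8-high cells, so its loss also appeared at equal depth. The thinning leaves out 153 calprotectin-rich Mmp8-negative cells of YO1, which had fewer than 500 UMIs, and none of YO2.

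Macrophages were compared with the calprotectin-rich Mmp8-negative cells as a cell type outside the granulocyte lineage. All 9 members were lower in macrophages in edgeR's test, against 27.9% of all genes lower and 21.8% higher. The estimates ran from -2.29 ± 0.40 SE for Chil3 (adjusted p = 0.000629) and -3.21 ± 0.32 for Hp (adjusted p = 1.85e-05) to -6.01 ± 0.71 for Ltf (adjusted p = 4.99e-05). The median was -5.34 for the members and -0.11 for all genes. In YO1 macrophages, 155 of 216 cells had no Ngp UMI, 57 had 1 to 9, and the tenth of cells with the most held 95% of the Ngp UMIs, while no YO2 macrophage had more than 3. After thinning, Ngp was found in 4.69% of YO1 macrophages and 0.693% of YO2 macrophages, against 10.2% and 1.83% of B cells, which do not make it, so the shares of macrophages with an Ngp UMI were at background. The median depth of those macrophages was 3204 UMIs in YO1 and 4671 in YO2, and of the B cells 1315 and 3673.5. Hp was above its share in B cells, with 10.3% and 12.7% of thinned macrophages against 3.53% and 3.92% of B cells. Lcn2 was at 10.3% and 7.16% against 6.36% and 2.61%, with exact 95% intervals that overlapped in YO1 and not in YO2. Chil3 was at 5.16% and 3.46% against 4.59% and 1.83%, with intervals that overlapped in both pools. Its macrophage UMIs lay in few cells, with none in 187 of 216 cells of YO1 and 393 of 433 of YO2. A single YO2 macrophage had up to 264. B cells held Chil3 at 524 CPM in YO1, above the macrophage level there, and at 78.4 CPM in YO2. Scaling by total UMIs moved the calls over all genes from 2640 higher and 3385 lower to 4477 and 1536, and all 9 members were still called lower. In the calprotectin-rich Mmp8-negative cells with Cxcr2 plus Csf3r at 30 per 10000 or more, Chil3 was at 77.1 CPM in YO1 and 46.6 CPM in YO2, below the 412 and 431 CPM of macrophages. Against these limited cells, macrophages stood at -1.12 ± 0.65 for Ltf, -0.29 ± 0.86 for Camp and -0.61 ± 0.83 for Ngp. Fcnb was at -0.68 ± 0.86 and Orm1 at -1.25 ± 0.86. None of these passed (edgeR adjusted p = 0.163 to 0.801), while Lcn2, Cd177 and Hp were still called lower. Chil3 was called higher (1.97 ± 0.30, edgeR adjusted p = 0.000217). Of all genes, 29.3% were lower and 27.3% higher in that comparison. The limit was chosen after the data were seen, so nothing further is read from these calls.

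Member UMIs found in B cells also limit how the lowest levels in neutrophils can be read. B cells held 154 CPM of Ngp in YO1 and 30 CPM in YO2, and 32.0 and 7.43 CPM of Ltf. The highest Cxcr2 plus Csf3r bin held 569 and 105 CPM of Ngp and 126 and 28.2 CPM of Ltf. After thinning, Ngp was found in 13.4% and 2.5% of the cells of that bin, against 10.2% and 1.83% of B cells. Both shares of the bin lay inside the exact 95% intervals of the B cell shares. Cells with eosinophil markers in YO1 held Ngp at 503 CPM and Ltf at 122 CPM, with a median depth of 726 UMIs against 1001 in the bin. After thinning, Ngp was found in 14.2% of them, so the YO1 bin did not stand above these cells in that share. The source of the member UMIs in B cells and in cells with eosinophil markers was not tested, and no level of free RNA was subtracted from any value.

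Genes of other granules and of the pathway, from lists chosen with earlier results of these data known, are given by counts, beside 0.701% of all genes higher and 0.643% lower at the first step and 21.2% higher and 20.8% lower at the second. Among 12 other secondary granule genes, edgeR called 2 higher and none lower in cycling cells against progenitors, Chil1 (log2 change 1.88 ± 0.37 SE, adjusted p = 0.0342) and Itgb2l (1.86 ± 0.40, adjusted p = 0.0454). In Mmp8-high against cycling cells 8 of the 12 were higher and none lower, among them Slpi, a protease inhibitor (2.88 ± 0.27, adjusted p = 1.00e-05), and Olfm4, olfactomedin 4 (1.94 ± 0.27, adjusted p = 0.000147). Of 11 azurophil granule genes, 4 were lower in cycling cells against progenitors, a class chosen by azurophil genes, so nothing is read from that count. In Mmp8-high against cycling cells 6 of the 11 were lower and 1 higher. Of 7 tertiary granule genes, 5 were higher at the first step and 7 at the second, with Mmp9, gelatinase B, at 3.74 ± 0.33 in the second (edgeR adjusted p = 7.11e-06). The median changes at the first and second step were 0.89 and 1.37 for the other secondary granule genes, -0.56 and -0.71 for the azurophil genes and 2.31 and 2.80 for the tertiary genes, beside 1.94 and 0.15 for the members and 0.05 and -0.11 for all genes. Mmp8-high cells were chosen by the collagenase gene Mmp8. How far that choice favoured higher secondary and tertiary granule genes at the second step was not tested. These counts, and those of the transcription factors below, used the whole cycling class. They were not repeated with calprotectin-rich cycling cells alone, a setting in which the 3 higher calls of members were lost.

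Of 10 transcription factors of granulopoiesis, edgeR called 6 lower and 3 higher in Mmp8-high than in cycling cells, beside 20.8% lower and 21.2% higher of all genes. Cebpe was at 192 CPM in progenitors, 290 and 103 CPM in cycling cells of YO1 and YO2, 105 and 50.6 CPM in Mmp8-high cells, 81.1 and 28.9 CPM in calprotectin-rich Mmp8-negative cells, and 5.38 and 1.82 CPM in macrophages. In cycling cells with calprotectin at 2% or more, Cebpe was at 348 CPM in YO1 and 285 CPM in YO2. It was lower in Mmp8-high cells than in the whole cycling class (log2 change -0.68 ± 0.21 SE, edgeR adjusted p = 0.0233). Gfi1, a repressor needed for neutrophil maturation, was at 137 CPM in progenitors and at 47.2 and 21.4 CPM in cycling cells, and was lower again in Mmp8-high than in cycling cells (-2.32, edgeR adjusted p = 0.000168). Cebpb, a related factor active in mature neutrophils, rose at that step by 2.10. Along the Cxcr2 plus Csf3r bins Cebpe went from 242 to 10.1 CPM in YO1 and from 260 to 8.60 CPM in YO2, and Cebpb from 360 to 3548 CPM and from 427 to 3108 CPM. Among the other secondary granule genes 8 of 12 were lower in the highest bin than in the lowest in both pools and 3 higher, beside 41.4% lower and 41.7% higher of 6830 genes. Cybb, the catalytic subunit of the phagocyte oxidase, went from 4688 to 216 CPM in YO1, and Slpi from 793 to 3684 CPM.

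Of 6 paralogs of the members, 3 passed the filter on low counts. Chil1, a chitinase-like relative of Chil3, was at 1097 CPM in YO1 and 649 CPM in YO2 Mmp8-high cells. Orm2 had at most 3 UMIs in any class sum and Orm3 had none, and Chil4, a near copy of Chil3, was at 0 to 9.84 CPM. How reads shared between Orm1 or Chil3 and these copies were assigned is not given in the sources used here, so the Orm1 and Chil3 levels are uncertain. Fcna, ficolin A of macrophages, was at 209 CPM in YO1 macrophages and 46.7 CPM in YO2 macrophages and at 1.5 to 13.2 CPM elsewhere. Fcna was higher in macrophages than in calprotectin-rich Mmp8-negative cells (log2 change 3.99 ± 0.38 SE, edgeR adjusted p = 1.58e-05), the reverse of Fcnb. Cd163, the haptoglobin-haemoglobin receptor gene, was higher in macrophages by 6.07 ± 0.37 (edgeR adjusted p = 2.31e-06), at 225 CPM in YO1 and 251 CPM in YO2.

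The genes whose class pattern was most like each member were ranked by Pearson's correlation of log2(CPM + 1) over the 9 class sums among 5534 genes, as a description in which the sums share 2 libraries. Wfdc21 was nearest to Lcn2 (0.993) and to Cd177 (0.991). Slco4c1 was nearest to Ltf (0.978) and to Ngp (0.973), and Itgb2l came second for both (0.976 and 0.972). Camp was nearest to Gca (0.968), Orm1 to Rasl11b (0.973), Chil3 to Fopnl (0.978) and Fcnb to Gpc1 (0.957). Hp was nearest to Rac2 (0.995), followed by Bin3 (0.990) and Abca7 (0.987).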

How the data were processed

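UMI counts per gene and cell barcode from 2 pools were used as the authors deposited them, whole numbers with no normalization. Reads were mapped to mm10 per the submitters' processing notes, and no aligner or counting setting was given in the sources used. The sample tag samples, 1 sample labelled unidentified and the antibody libraries that the labels' protocol describes were not analysed here. Counts totalled 39713846 in YO1 and 41839786 in YO2. Cells were filtered and classed as stated above, and no doublet caller was run. A second pass left out the 5% of cells with the most UMIs. Cells are not replicates, so UMIs were summed over class and pool into 9 sums of at least 20 cells, in place of 10, as YO2 had no progenitors.

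Sums were tested with edgeR 4.0.16 (limma 3.58.1, R 4.3.3): TMM scaling, the default filter on low counts, class plus pool, quasi-likelihood test, two-sided, Benjamini-Hochberg threshold 0.05 over 12127 genes. DESeq2 1.42.0 was an alternative. Pool was kept as a block because all sums of a pool come from 1 cartridge; deviations of sums of the same pool correlated at 0.200 to 0.528 over 6 pairs of classes. Intervals are exact Poisson, Clopper-Pearson or conditional binomial at 95% and cover counting error only. The fit was checked on simulated counts. Levels, thinning and figures used matplotlib 3.10.9, scipy 1.17.1, numpy 2.4.6 and pandas 2.3.3 in Python 3.11.15.

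The members and gene lists were chosen with earlier results of these data known. Named were all 9 members, the 3 genes most like each in pattern, and examples from the lists. Threshold neighbours were few to many: 11 cells had 8 or 9 progenitor UMIs and 10 had 10 or 11, while 511 YO1 and 593 YO2 cells had 4 Mmp8 UMIs against 330 and 432 with 5. The Ngp boundary, the Cxcr2 plus Csf3r bins and the cell classes used for background were chosen after seeing the data. Alternatives covered scaling, low-count filters, the pool block, class thresholds, class order and leaving out each sum.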

Additional observations from a re-analysis of the deposited data

How the results depend on the processing

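Members called were recounted under each alternative. For cycling cells against progenitors, 2 members were called higher; DESeq2 gave 4, total UMIs 0, no filter 7, no replicate block 0, Mmp8 at 3 or more 4, a progenitor threshold of 5 gave 1 and of 20 gave 5, calprotectin-rich cycling cells 5, dropping the top 5% of UMIs 0, and leaving out a cycling sum 2 to 3. With macrophages assigned first the 2 were Chil3 and Orm1, not Lcn2 and Cd177. None were lower, but 1 without a filter. The single progenitor sum could not be left out, and where a class keeps 1 sum it is assumed to vary like the others.

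For Mmp8-high against cycling cells, 3 were higher; this became 1 with total UMIs, no replicate block, means over cells, Mmp8 at 3 or more, Mki67 plus Top2a at 4 or more, macrophages first and without the top 5%, and 0 with calprotectin-rich cycling cells. Leaving out a sum gave 1 to 2. The 3 lower became 1 without the block, and 1 to 3 on leaving out a sum. Lcn2 reversed to -0.058 with means over cells (adjusted p = 0.840) and -0.39 with calprotectin-rich cycling cells, and Cd177 to -0.16 and -0.43.

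For calprotectin-rich Mmp8-negative against Mmp8-high cells, none were higher; no filter gave 1, Mmp8 at 3 or 10 gave 1 each, calprotectin-rich cycling cells 1 and calprotectin at 5% or more 2. The 1 lower became 2 with DESeq2, 5 without a filter, 0 without the block, 2 with means over cells, 3 at Mmp8 of 10, 2 at Mki67 plus Top2a of 4, 0 at calprotectin of 5%, 3 without the top 5%, and 0 on leaving out any sum. Limited to Cxcr2 plus Csf3r at 30 per 10000 or more, chosen after seeing the data, it became 8, beside 8.08% of all genes lower. That limit takes out cells low in Cxcr2 and Csf3r, as the Ngp-rich cells were, so this count supports nothing further. Fcnb then reversed to -3.45 (edgeR adjusted p = 0.00336) and Orm1 to -3.76. With that limit macrophages had 3 members lower and 1 higher, Chil3, reversed to 1.97, beside 29.3% of all genes lower and 27.3% higher. For macrophages, no replicate block gave 8 lower, without Camp (edgeR adjusted p = 0.0534). Each other alternative run for macrophages, leaving out a sum included, gave 9. Of the members with a lower level than in Mmp8-high cells in YO1, 7 became 4 at calprotectin of 5%. The causes of these moves were not tested.

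Over all genes, 58 were higher and 84 lower in calprotectin-rich Mmp8-negative cells; DESeq2 gave 169 and 151, and no block 0 and 0. For cycling cells against progenitors 85 and 78 became 290 and 142 with DESeq2. Depth limits the low-count members: a level of 3 counts in YO2 macrophages is 1.36 CPM.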

Other observations

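Some members were measured in cells outside the 5 classes, picked by 3 or more UMIs of a cell type's markers and calprotectin below 2%. Chil3 was high in cells with alveolar macrophage markers, at 15773 CPM in 275 cells of YO1 and 14575 CPM in 413 cells of YO2, with a UMI in 97.1% and 96.6% of them. Ltf was at 30.2 and 6.00 CPM in the same cells and Hp at 47.7 and 59.2 CPM, so the Chil3 level did not come with the other members. Cells with monocyte markers (845 and 657) held Chil3 at 625 and 371 CPM, Hp at 491 and 398 CPM and Cd177 at 32.3 and 31.0 CPM. Their Ltf level, 31.9 and 6.37 CPM, was near the 32.0 and 7.43 CPM of B cells. Cd177 was at 0 and 1.20 CPM in B cells. After thinning to 500 UMIs, Chil3 was found in 19.1% and 13.9% of the monocytes and Hp in 20.4% and 16.7%. Cells with liver endothelial markers in YO1 (592) held Ltf at 28.5 CPM, Ngp at 145 CPM, Lcn2 at 168 CPM and Hp at 215 CPM. Cells with eosinophil markers in YO1 (257) held Ltf at 122 CPM and Ngp at 503 CPM.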
